A study of Homo sapiens with 49 samples.

Results

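TAF1 occupancy in T-47D cells, a line derived from a human ductal carcinoma of the breast that carries the estrogen receptor, was compared between 17β-estradiol (E2) and its vehicle, DMSO. The members were all regions of the 2 T-47D TAF1 peak lists, 4591 under DMSO and 5645 under E2, out of 528044 regions in the 45 lists of the series. A region was classed as shared when it overlapped a region of the other list by at least 1 bp, and otherwise as E2-only or DMSO-only. T-47D and Ishikawa (endometrial adenocarcinoma) cells were profiled by ChIP-seq for histone marks and chromatin-bound proteins across 49 samples, for work on how regulatory DNA sets when and how variably genes respond to estrogen. Both TAF1 groups were T-47D cells kept in hormone-depleted medium and then given either 10 nM E2 or DMSO for 1 h. Chromatin was pulled down with one antibody raised against TAF1, labelled TAF II p250. Each treatment had 1 TAF1 library, so no TAF1 difference below has a replicate check, and intervals on shares are exact (Clopper-Pearson, 95%) and cover counting error only. T-47D RNAPII had 2 libraries per treatment, also at 1 h, and the histone marks were taken at 8 h with 1 library each.

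TAF1 is the largest subunit of TFIID, the general transcription factor that binds core promoters through its TBP and TAF subunits and nucleates the pre-initiation complex into which RNAPII is loaded. TAF1 recognizes core promoter DNA and acetylated histones, while TFIID also contacts H3K4me3, a mark of active promoters, through TAF3. TAF1 ChIP-seq is therefore used to map promoters that hold pre-initiation machinery. E2 acts through the estrogen receptor, which binds mostly at enhancers and recruits coactivators that reach the transcription machinery at promoters.

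Promoter sequences are given for the 2 strongest single-gene promoters of the E2-only and DMSO-only classes whose upstream window held at most 30 UTR bases and whose summit was near the main start, to show the DNA that TAF1 occupied under 1 treatment alone, and for 4 further genes that the results below return to. Each is the 120 bases just upstream of the start site nearest to the TAF1 summit in GRCh37, read 5′ to 3′ on the strand of the gene. Capitals mark the letters of the TATA box, GC box, ETS core, YY1 core, E-box, CCAAT box, CRE, AP-1 site, forkhead site or estrogen response element on either strand, all spelled out with their shares further on, and a start site is where transcription of an annotated transcript begins.
CEMIP2, E2-only, chr9:74383430-74383549, minus strand: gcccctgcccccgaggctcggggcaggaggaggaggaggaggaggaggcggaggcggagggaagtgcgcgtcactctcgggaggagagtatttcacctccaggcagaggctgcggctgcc
NAA16, E2-only, chr13:41885296-41885415, plus strand: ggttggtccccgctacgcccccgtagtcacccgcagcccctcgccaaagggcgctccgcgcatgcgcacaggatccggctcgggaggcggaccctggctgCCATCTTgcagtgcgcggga
MAP2K4, DMSO-only, chr17:11924026-11924145, plus strand: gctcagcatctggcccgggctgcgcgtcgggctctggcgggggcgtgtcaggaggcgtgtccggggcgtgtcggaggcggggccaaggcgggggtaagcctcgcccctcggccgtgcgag
HK2, DMSO-only, chr2:75061134-75061253, plus strand: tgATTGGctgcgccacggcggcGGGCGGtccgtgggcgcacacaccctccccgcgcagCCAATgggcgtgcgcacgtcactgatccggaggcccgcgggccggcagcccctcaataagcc
RARA, shared, chr17:38474417-38474536, plus strand: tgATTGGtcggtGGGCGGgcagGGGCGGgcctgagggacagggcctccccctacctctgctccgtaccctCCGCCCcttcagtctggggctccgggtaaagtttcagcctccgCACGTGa
TIPARP, shared, chr3:156392259-156392378, plus strand: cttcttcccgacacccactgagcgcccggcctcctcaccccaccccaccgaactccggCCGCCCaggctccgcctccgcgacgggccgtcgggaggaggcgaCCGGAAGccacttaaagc
GREB1, E2-only, chr2:11682696-11682815, plus strand: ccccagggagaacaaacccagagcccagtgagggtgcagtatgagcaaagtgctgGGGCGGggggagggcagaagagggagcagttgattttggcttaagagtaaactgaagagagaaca
FOS, shared, chr14:75745411-75745530, plus strand: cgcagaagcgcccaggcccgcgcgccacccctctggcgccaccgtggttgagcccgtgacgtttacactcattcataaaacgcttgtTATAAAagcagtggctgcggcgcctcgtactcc
The windows of all classes were rich in G and C, from 61.7% at FOS to 77.5% at MAP2K4, except for GREB1 (55.0%, with 1 CpG). FOS alone carried the TATA box, starting 33 bp upstream of its start. The YY1 core stood 20 bp upstream of NAA16 on the opposite strand, and the ETS core 18 bp upstream of TIPARP. The letters of an estrogen response element were in none of the 8 windows.

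TAF1 lay at most promoters of luminal breast genes and at none of those of other cell types. Of 16 luminal genes, 14 had a TAF1 region within 250 bp of a start site, against 30.1% of all protein-coding genes, among them GATA3 (fold enrichment 14.3 under DMSO and 12.8 under E2), KRT18 (14.7 and 13.6), KRT8 (8.85 and 14.9) and CDH1 (15.3 and 14.6). ESR1, the estrogen receptor gene, had no TAF1 region although RNAPII lay there in all 4 libraries. That was common, as TAF1 was called at 31.4% to 50.8% of start-site RNAPII regions, depending on the library. Of 19 annotated marker genes of other cell types, 0 carried TAF1. Fold enrichment is the peak caller's ratio of tags to local background at the summit, the highest point of a region.

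E2 and DMSO occupied largely the same promoters. Of the DMSO regions, 4064 (88.5%, 95% CI 87.6 to 89.4) were overlapped by an E2 region, and of the E2 regions 3989 (70.7%, 69.5 to 71.9) were overlapped by a DMSO region. The remainder were 1656 E2-only regions, 29.3% of the E2 list, and 527 DMSO-only regions, 11.5% of the DMSO list. E2-only regions thus outnumbered DMSO-only regions by a ratio of 3.14, whereas the lists themselves differed in length by a ratio of 1.23. The 2 RNAPII libraries of one treatment differed in list length by ratios of 1.85 under DMSO and 1.98 under E2, more than the TAF1 lists did. When the E2 list was shortened to the length of the DMSO list by p-value, 978 regions were E2-only and 900 DMSO-only, a smaller excess. With both lists cut to a fold enrichment of at least 10 before overlap, the numbers were 738 and 89. Most of these were regions whose partner fell below the cut. Without it, 99 E2-only and 13 DMSO-only regions outside the mitochondrial genome reached 10. The cut kept 1152 shared regions of the E2 list but 590 of the DMSO list. With a reciprocal overlap of 50% the numbers were 2153 and 1099, so the size of the excess depended on how the lists were compared. Mitochondrial regions (1 E2-only and 3 DMSO-only, with 1 shared in each list) were left out from here on.

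Regions called under 1 treatment alone were the weak ones of each list. Each list was divided by p-value into 5 bins of equal size. In the E2 list, 63.3% of the weakest bin was E2-only, against 46.9%, 25.5% and 10.1% of the next 3 bins and 0.709% (8 of 1128 regions) of the strongest. In the DMSO list the DMSO-only share was 26.6% in the weakest bin and 4.03% in the next to strongest. In its strongest bin 0 of 917 regions were DMSO-only, and the shared share was 100% (99.6 to 100). Median fold enrichment was 6.37 at E2-only regions and 5.88 at DMSO-only regions. At shared regions it was 8.13 in the E2 list and 6.66 in the DMSO list. A fold enrichment of at least 10 was reached by 5.98% of E2-only, 2.48% of DMSO-only, 28.9% of shared regions of the E2 list and 14.5% of shared regions of the DMSO list. The number of tags stacked at a summit, recovered from the fold enrichment and p-value, was a median of 39 at E2-only and 40 at DMSO-only regions, against 58 and 56 at shared regions of the E2 and DMSO lists. E2-only regions were a median of 317 bp wide, DMSO-only regions 240 bp, and shared regions 472 bp in the E2 list and 349 bp in the DMSO list. The shortest region was 239 bp in the E2 list and 197 bp in the DMSO list. Shared regions that paired one to one were a median of 1.28 times wider under E2, so widths are comparable within a list only. Of E2-only regions, 198 (11.96%, 10.4 to 13.6) lay within 1000 bp of a DMSO region they did not touch, as did 65 DMSO-only regions (12.4%, 9.71 to 15.5) of an E2 region.

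**Figure D1:**
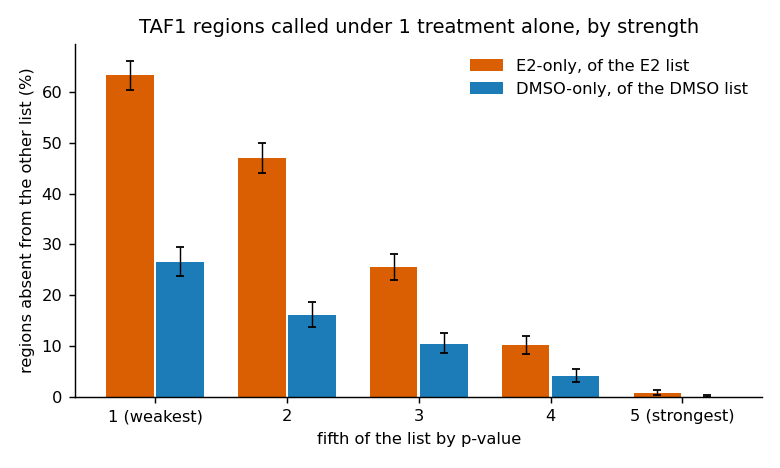
Share of TAF1 regions absent from the other treatment's list (y axis, %), with each list divided into 5 bins by p-value (x axis, weakest to strongest); bars are E2-only regions of the E2 list and DMSO-only regions of the DMSO list, with exact 95% intervals. Both shares fall with strength, from 63.3% to 0.709% in the E2 list and from 26.6% to 0 of 917 regions in the DMSO list.

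Most regions of all 3 classes were at promoters. A GENCODE transcription start site lay within 250 bp of 95.8% of shared regions in the E2 list (95.2 to 96.4), 88.5% of E2-only regions (86.9 to 90.02) and 87.8% of DMSO-only regions (84.7 to 90.5). Start sites of protein-coding genes accounted for most of these, at 91.5%, 82.9% and 83.4% of the 3 classes. The intervals of the E2-only and DMSO-only classes overlapped each other and lay below that of shared regions. With the E2 list shortened to equal length, 91.7% of E2-only regions lay at a start site. Among regions at a protein-coding start whose summit was within 1000 bp of a main start (3491 of 3988 shared, 1281 of 1655 E2-only and 405 of 524 DMSO-only), the median summit was downstream of that start, at 27, 31 and 15 bp. The middle 50% of these distances ran from -24 to 68 bp, from -44 to 93 bp and from -74 to 51 bp. Start sites on both strands lay within 1000 bp of the summit at 33.9% of shared regions (32.5 to 35.4), 29.0% of E2-only regions (26.8 to 31.3) and 28.8% of DMSO-only regions (24.97 to 32.9). Start sites of more than 1 protein-coding gene lay within 250 bp of 17.7%, 14.1% and 12.8% of the classes.

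**Figure D2:**
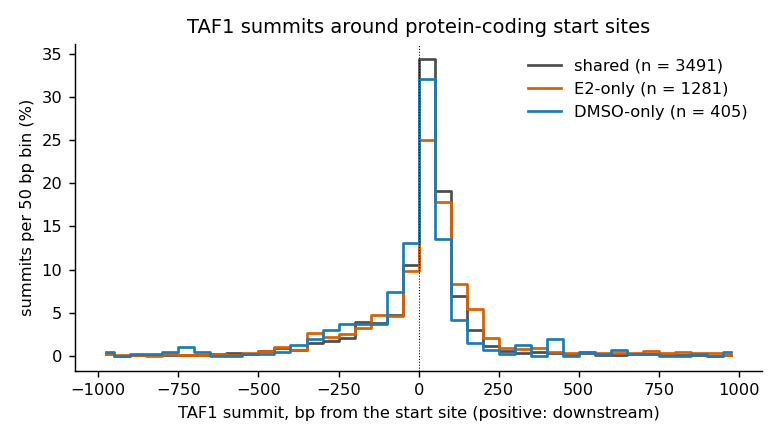
Distance of TAF1 summits from the nearest protein-coding start site (x axis, bp, positive downstream) as a share of the summits in 50 bp bins (y axis, %), for shared regions of the E2 list (n = 3491), E2-only (n = 1281) and DMSO-only (n = 405) regions. The 3 curves peak just downstream of the start, with medians of 27, 31 and 15 bp.

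Most summits lay in CpG-rich DNA of the kind found at CpG island promoters. In 301 bp centred on the summit, the observed to expected CpG ratio was at least 0.6 in 92.3% of shared regions (91.5 to 93.1), 88.8% of E2-only regions (87.2 to 90.3) and 86.1% of DMSO-only regions (82.8 to 88.9). The same was true of 69.1% of windows around all 19819 protein-coding start sites, and of 58.5% at start sites with no TAF1 region. Motif letters were searched on both strands of these windows. The YY1 core (AAGATGG), bound by a zinc finger factor found near start sites, was in 13.0% of shared regions (11.9 to 14.05), 8.82% of E2-only regions (7.50 to 10.3) and 5.53% of DMSO-only regions (3.74 to 7.85), against 6.71% of all protein-coding starts. The ETS core (CCGGAAG), read by factors such as GABPA, was in 21.3%, 18.7% and 22.9% of the 3 classes, against 13.5% of all starts. The GC box (GGGCGG) of SP factors was in 70.2%, 69.7% and 67.2%, against 61.7%. The estrogen response element (GGTCA and TGACC, 3 bases apart) was in 1 shared region of the E2 list, 1 E2-only region and 0 of 524 DMSO-only regions (0 to 0.702%), and at 10 of all protein-coding starts. The E-box (CACGTG) of MYC and MAX was in 8.40% of shared, 9.31% of E2-only and 7.25% of DMSO-only regions, against 7.72% of all starts. The CCAAT box (CCAAT) of NF-Y was in 32.4%, 29.0% and 29.8%, against 32.8%. The CRE (TGACGTCA) of CREB factors was in 2.41%, 2.48% and 3.82%, against 2.38%. The AP-1 site (TGACTCA) of FOS and JUN was in 2.38%, 2.11% and 3.63%, against 3.15%. The forkhead site (TGTTTAC) was in 1.38%, 2.42% and 1.53%, against 1.89%. A TATA box (TATAAA), here on the sense strand between 40 and 15 bp upstream of the main start, was found at 2.17% of genes with a shared region (1.75 to 2.65), 1.01% with an E2-only region (0.555 to 1.69), 1.63% with a DMSO-only region (0.657 to 3.33) and 4.81% with none (4.46 to 5.18).

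Shared regions with the highest values in both lists included those at RPS15, LRP6, RPL37A and HNRNPH3. RPS15, a protein of the small ribosomal subunit, had the highest lower value of any pair, with fold enrichments of 36.1 under DMSO and 44.4 under E2 at chr19:1438133-1438815, where 118 and 131 tags were stacked. LRP6, a coreceptor for Wnt ligands, had 32.6 and 39.2 at chr12:12419708-12420642 (144 and 161 tags). RPL37A of the large ribosomal subunit had 28.0 and 36.6 at chr2:217363256-217364013, and the divergent promoter of HNRNPH3, an RNA-binding protein, and PBLD had 26.3 and 34.5 at chr10:70091074-70092648. RNAPII lay over these 4 promoters in each of its 4 libraries.

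The strongest E2-only regions had RNAPII at most of their promoters under DMSO as well. NFKBIE, an inhibitor of NF-κB, led with a fold enrichment of 16.9 and 66 tags at chr6:44233090-44233466, at 9 bp from its start and in a coding exon. RNAPII there had fold enrichments of 90.2 and 12.5 in the DMSO libraries and 31.1 and 17.0 in the E2 libraries. CEMIP2, a hyaluronan-binding surface protein, followed with 14.3 at chr9:74383266-74383619, at -12 bp from its start. The region at KMT2C, a histone H3K4 methyltransferase, had 14.1 with 30 tags, at -865 bp from the main start and in an exon of the pseudogene FABP5P3. Copies of a gene can share reads, so this region is uncertain. UHRF1, which maintains DNA methylation, had 14.04 at chr19:4909402-4909716 and NAA16, a subunit of an N-terminal acetyltransferase, 13.8 at chr13:41885143-41885721. Both had RNAPII in DMSO replicate 1 (30.3 and 25.9). The E2-only regions next to NFKBIE in fold enrichment were away from protein-coding starts, in introns of the long noncoding RNA genes NIHCOLE (14.5, 31 tags, with no RNAPII in any library) and LINC01357 (14.5, 46 tags, with RNAPII in all 4).

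The strongest DMSO-only regions were also at starts of protein-coding genes, and all 5 had RNAPII in replicate 1 of both treatments. MAP2K4, a kinase upstream of JNK, led with a fold enrichment of 13.6 and 34 tags at chr17:11923995-11924251, at -100 bp from its main start. HK2, the hexokinase of the first step of glycolysis, had 12.2 at chr2:75061118-75061389 and CYP2U1, a cytochrome P450, 11.98 at chr4:108852550-108852815, both in a UTR beside the start. TGIF1, a homeodomain repressor of TGFβ signaling, had 11.2 at chr18:3450149-3450371. DYRK1A, a dual-specificity kinase, had 11.002 at chr21:38740054-38740358, in an intron 1124 bp from its main start and 540 bp from an E2 region.

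RNAPII lay under nearly every TAF1 region of each class and under both treatments. The share of shared regions overlapped by RNAPII was 99.8% and 97.0% in the DMSO libraries (98.4 ± 1.97, SD, n = 2) and 99.7% and 99.0% in the E2 libraries (99.4 ± 0.479). For E2-only regions it was 98.9% and 86.9% under DMSO (92.9 ± 8.46) and 98.5% and 94.98% under E2 (96.8 ± 2.52). For DMSO-only regions it was 98.7% and 87.6% under DMSO (93.1 ± 7.83) and 98.9% and 93.7% under E2 (96.3 ± 3.64). The treatments overlapped in all 3 classes, and replicate 2 of DMSO was the lowest library in every class. E2 minus DMSO was 0.953 percentage points for shared, 3.90 for E2-only and 3.15 for DMSO-only regions, within the spread between replicates (exact two-sided permutation test over 6 assignments, p = 1, 1 and 0.667, adjusted p = 1 for each). A design of 2 against 2 libraries cannot reach a p below 0.3333. Without DMSO replicate 2 all 3 differences turned negative, to -0.439, -2.08 and -2.39 points. RNAPII was absent from all 4 libraries at 5 shared regions of the E2 list, 8 E2-only regions and 2 DMSO-only regions.

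**Figure D3:**
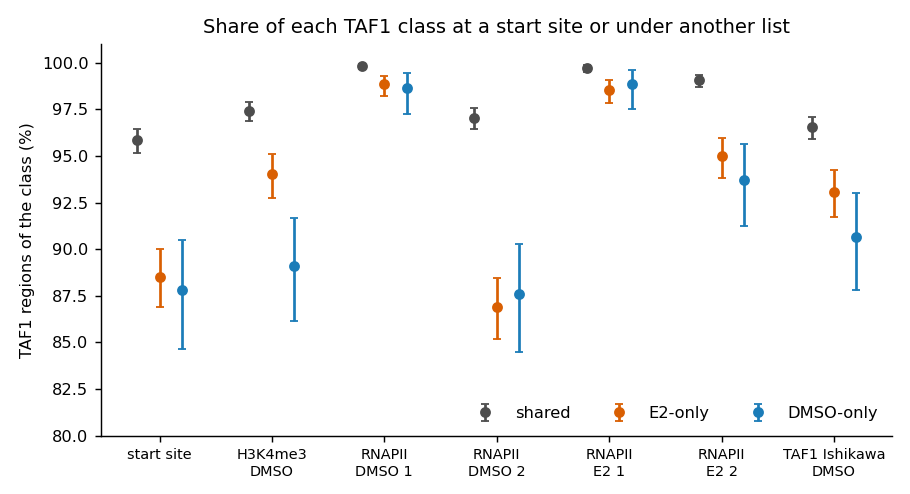
Share of the shared (E2 list), E2-only and DMSO-only TAF1 regions (y axis, %, starting at 80) that lay within 250 bp of a start site or under a region of the H3K4me3, RNAPII or Ishikawa TAF1 lists (x axis; 1 and 2 are the RNAPII replicates); points are shares and bars exact 95% intervals. Shared regions had the highest share in each column, and the E2-only and DMSO-only classes were lowest in RNAPII DMSO replicate 2, at 86.9% and 87.6%.

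Sites where RNAPII appeared with E2 were largely without TAF1. RNAPII regions present in both E2 libraries and in neither DMSO library numbered 1077, of which 98 lay at a start site. TAF1 was called at 2 of them (0.186%, 0.0225 to 0.669), both E2-only regions away from start sites, against 12.7% of all regions of RNAPII E2 replicate 1. The 2 sets differ in position, since 37.8% of all regions of that library lay at a start site. At start sites alone, TAF1 was called at 0 of the 98 regions, against 32.1% of such regions of that library. One was intergenic, at -43029 bp from the start of THSD4, at chr15:71364649-71364916, with a TAF1 fold enrichment of 8.89 and RNAPII at 13.3 and 9.91 in the E2 libraries. The other was in an intron of the aminopeptidase gene AOPEP at chr9:97768557-97768880, with TAF1 at 6.35 and RNAPII at 18.7 and 12.9. In E2 replicate 1 both RNAPII values lay below the median of 30.3 under shared TAF1 regions. Gained sites were not matched to the library in RNAPII strength, whose part in the contrast was not tested.

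H3K4me3 under DMSO covered 97.4% of shared regions (96.8 to 97.9), 94.0% of E2-only regions (92.8 to 95.1) and 89.1% of DMSO-only regions (86.1 to 91.7). Regions more than 250 bp from any start site, 166 shared, 190 E2-only and 64 DMSO-only, carried the mark in 154, 154 and 48 cases. Many of these were still near one, since 97.9% of shared, 95.05% of E2-only and 95.6% of DMSO-only regions lay within 1000 bp of a start site. H3K4me1, a mark of enhancers, lay under DMSO at 3 shared, 1 E2-only and 0 of 524 DMSO-only regions (0 to 0.702%). The c-JUN list of DMSO, with 28703 regions, covered 99.4%, 97.5% and 96.9% of the classes. Its cover of start sites without TAF1 is not given here, so these shares have no background to be read against. The much shorter c-MYC list of E2 (1822 regions) covered 19.7%, 11.3% and 7.44%, and that of MAX, its partner at E-boxes (1492 regions), 17.3%, 11.7% and 8.21%. The still shorter DMSO lists covered less. That of c-MYC (601 regions) covered 8.60%, 3.75% and 2.67%, and that of MAX (199 regions) 1.23%, 0.967% and 0.954%. These shares have no background of start sites without TAF1 either. The DMSO library labelled H3K27me3, a mark of Polycomb silencing, had regions over 58.7% of shared, 38.1% of E2-only and 33.8% of DMSO-only regions. Most of these classes also lay under H3K4me3 and RNAPII, so what this library marks is uncertain. The library labelled H3K27me3 under E2 held 107 regions against 6305 under DMSO, and 3 shared, 1 E2-only and 0 of 524 DMSO-only regions lay under it. TAF1 of Ishikawa cells under DMSO lay over 96.5% of shared, 93.1% of E2-only and 90.6% of DMSO-only regions.

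TAF1 regions with no counterpart in either Ishikawa list were few. They were 137 shared regions of the E2 list (3.44% of that class), 108 E2-only (6.53%) and 47 DMSO-only regions (8.97%). Among the strongest shared ones, picked after their values were seen, were the luminal transcription factor gene GATA3 (fold enrichment 12.8 under E2), the T-box factor gene TBX3 (13.8) and the homeobox gene MSX2 (22.5). Several were at histone genes, such as H3C10 (15.4) and the divergent pair H2AC12 and H2BC12 (13.6). Start sites lay at 67.2% of these shared regions at 39.8% of the E2-only ones and at 70.2% of the DMSO-only ones.

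At shared regions TAF1 fold enrichment correlated between treatments. Among 3866 regions that paired one to one, the median ratio of E2 to DMSO fold enrichment was 1.21 (0.27 on the log2 scale, with the middle 90% of pairs from -0.28 to 0.83), and 79.3% of pairs had a ratio above 1. The tags behind these values had medians of 56 under DMSO and 58 under E2 and a median ratio of 1.04. The median local background was 7.78 and 6.37 tags, lower under E2 in 90.7% of pairs. Depth was not estimated and neither value is scaled between libraries, so similar tags need not mean similar occupancy. Each pair is therefore read against the median ratio. The pairs correlated across regions, which are not replicates, with r = 0.786 on the log2 scale and Spearman's rho = 0.746. Relative to the median ratio, 165 pairs (4.27%) were at least 1.5 times higher under E2 and 149 pairs (3.85%) at least 1.5 times lower. Median tags were 47 under DMSO and 71 under E2 at the higher pairs, and 55 and 41 at the lower ones. RNAPII was similar at both kinds. The median log2 ratio of E2 to DMSO RNAPII fold enrichment was -1.06 at pairs higher under E2, -1.08 at the pairs between and -1.04 at pairs lower under E2 in replicate 1, and 0.34, 0.34 and 0.33 in replicate 2.

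**Figure D4:**
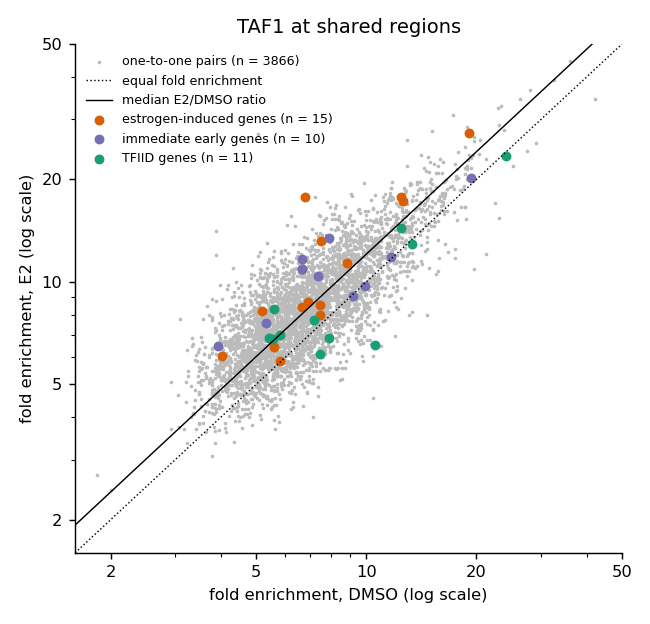
TAF1 fold enrichment under DMSO (x axis, log scale) and E2 (y axis, log scale) at 3866 one-to-one pairs (grey), with the genes of 3 lists in color; the dotted line is equality and the solid line the median ratio of 1.21. Pairs follow the solid line, and RARA, at 6.80 and 17.7, is the estrogen-induced gene farthest above it.

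Among the 1187 pairs that reached a fold enrichment of 10, the highest ratio was at PGK1, a glycolytic kinase, with 5.05 under DMSO and 27.3 under E2 at chrX:77359149-77359992. The DMSO value came from 87 tags over a local background of 16.4, above the median of 7.78 for all pairs. Tags and background under E2 were not recovered there, so whether the tags differed is not known. The start of RNU6-1, a gene of the U6 small nuclear RNA of the spliceosome, followed with 3.88 and 14.1 at chr15:68132217-68132869, where tags were 44 and 140. Copies of U6 genes can share reads, so this pair is uncertain. DTD2, which edits mischarged tRNA, had 3.87 and 11.97 with 46 and 71 tags, and its local background was 11.1 under DMSO and 5.02 under E2. RARA, the retinoic acid receptor α and an estrogen-induced gene, had 6.80 and 17.7 at chr17:38474138-38475218, where tags were 52 and 112 and the background 6.79 and 5.38. ARL1, a Golgi GTPase, had 4.31 and 10.98 with 49 and 69 tags. Among the lowest ratios were those at the divergent promoter of RCHY1 and THAP6 (10.4 and 4.56, with 52 and 36 tags), at that of NOA1 and POLR2B, the latter encoding the second largest RNAPII subunit (14.7 and 8.00, with 81 and 46 tags), at REXO4 (19.7 and 10.9) and at RNASEK (11.96 and 6.91). RNU6-1, RARA and POLR2B thus differed in tags as well as in fold enrichment, while at DTD2 and ARL1 the background differed by more than the tags. Tags are not scaled for depth, so these contrasts are read against the median tag ratio of 1.04 over all pairs.

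Of 20090 protein-coding genes, 4203 (20.9%) had a shared TAF1 region at a start site, 1382 (6.88%) an E2-only region alone and 429 (2.14%) a DMSO-only region alone, so that 6046 (30.1%) carried TAF1 in either list. Genes known to be induced by E2 had TAF1 in 23 of 45 cases, 15 shared, 7 E2-only and 1 DMSO-only. All 15 shared genes had a higher fold enrichment under E2, against 79.9% of all genes with a shared region, and their median ratio was 1.37 against 1.21. Read against the median ratio of pairs, the increase was not uniform. PGR, CA12, NRIP1 and PKIB lay below it, at 0.955, 0.889, 0.959 and 0.836 times its value. At PKIB tags were 51 under DMSO and 40 under E2. One of the 15, RARA, was 1.5 times above the median ratio, against 4.04% of all such genes. XBP1, a stress response factor needed in secretory cells, had 19.1 and 27.4, FKBP4, a steroid receptor cochaperone, 12.4 and 17.7, TIPARP, an ADP-ribosyltransferase, 12.6 and 17.3, the lysosomal protease gene CTSD 7.54 and 13.2, and MYC 6.66 and 10.9. CCND1, the D-type cyclin of G1, had 4.03 and 6.05. PGR, the progesterone receptor gene, had 2 regions in each list, and values of 7.45 and 8.58. Its tags were 42 and 88 over a local background of 4.77 and 9.37, so the 2 values may come from different summits.

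The 7 estrogen-induced genes with E2-only regions were GREB1, TPD52L1, OLFM1, P2RY2, SGK3, MCM2 and SLC39A6. GREB1, a coactivator of the estrogen receptor, had 2 E2-only regions at its start sites, the stronger with a fold enrichment of 8.20 and 23 tags at chr2:11682509-11682876. RNAPII lay at GREB1 in all 4 libraries, with 23.8 and 7.90 under DMSO and 33.8 and 19.2 under E2. The zinc transporter gene SLC39A6 had 8.78, the secreted glycoprotein gene OLFM1 8.37, the kinase gene SGK3 6.76, the replication helicase gene MCM2 6.73, TPD52L1 6.44 and the nucleotide receptor gene P2RY2 5.93. All 7 were below the median of 11.8 of the strongest bin of the E2 list, but P2RY2 alone was below the median of 6.37 of E2-only regions. WWC1, a regulator of Hippo signaling, was DMSO-only, at 5.11. No TAF1 region was called at the other 22, which included TFF1, where RNAPII was also absent from all 4 libraries, and TFF3, CXCL12 and IGFBP4, where RNAPII was present in both E2 libraries and in DMSO replicate 1.

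Immediate early genes, which respond to stimuli without new protein synthesis, had TAF1 in 12 of 24 cases, 10 shared and 2 E2-only, with a median ratio of 1.42. FOS had 7.36 and 10.4, JUN 7.93 and 13.4 and ATF3 6.66 and 11.7, whereas JUNB (19.3 and 20.3), IER3 (11.7 and 11.9) and DUSP1 (9.92 and 9.70) were nearly level. Of the 10, 0 were 1.5 times above the median ratio, against 4.04% of all genes with a shared region, so few were to be expected. The E2-only genes were BTG2, an antiproliferative gene (9.69), and IER2 (4.39). EGR1, JUND and CCN1 had no TAF1 region although RNAPII was at each under DMSO (97.9, 87.1 and 105 in replicate 1). At JUND and CCN1 RNAPII was called in all 4 libraries, but at EGR1 in replicate 1 of each treatment alone. As stated for ESR1, start sites with RNAPII but no TAF1 region were common.

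The genes of TFIID itself all carried TAF1, 11 shared, 2 E2-only and 3 DMSO-only of 16, and their median ratio was 1.08. TAF5 had the highest values, 24.1 and 23.5. TBP, the TATA-binding subunit, had 5.56 and 6.81, and TAF1 7.17 and 7.73. TAF9 (5.70) and TAF11 (4.85) were E2-only, and TAF10 (3.79), TAF13 (5.69) and TAF4B (8.73) DMSO-only. TAF9B, a paralog of TAF9, was the one shared member more than 1.5 times below the median ratio (10.6 and 6.53), with 32 and 30 tags, against 3.82% of all genes with a shared region. Of 29 genes of the other general factors and RNAPII subunits, 12 were shared and 2, GTF2H5 (8.35) and CCNH (8.30) of TFIIH, E2-only. POLR2A, the largest RNAPII subunit, had 11.3 and 16.7. None of the 12 was 1.5 times above the median ratio, against 4.04% of all genes with a shared region, so few were to be expected. Below it by 1.5 times were 2, against 3.82% of all such genes. They were POLR2B (14.7 and 8.00) and MNAT1, a subunit of the TFIIH kinase (12.1 and 9.70). RNAPII lay in all 4 libraries at 27 of the 29, and at 13 of these no TAF1 region was called. For comparison, TAF1 was called at 31.4% to 50.8% of all start-site RNAPII regions, depending on the library.

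Ribosomal protein genes had TAF1 at 78 of 79, of which 73 were shared, 4 E2-only (RPS27A, RPL21, RPL36A and RPLP2) and 1 DMSO-only. Their median fold enrichment was 11.4 under DMSO and 13.0 under E2, above the medians of shared regions, and their median ratio was 1.20. At 5 of the 73 the ratio was 1.5 times above the median, against 4.04% of all genes with a shared region, among them RPS16 (4.79 and 9.71), RPL23A (5.41 and 10.4), RPSA (8.03 and 15.3) and RPL11 (15.1 and 27.7), and RPL10 was below it (9.37 and 7.10). Replication-dependent histone genes had TAF1 in 38 of 64 cases, 31 shared, 5 E2-only and 2 DMSO-only, with a median ratio of 1.14. Their near-identical copies can share reads, so single histone genes are uncertain.

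**Figure D5:**
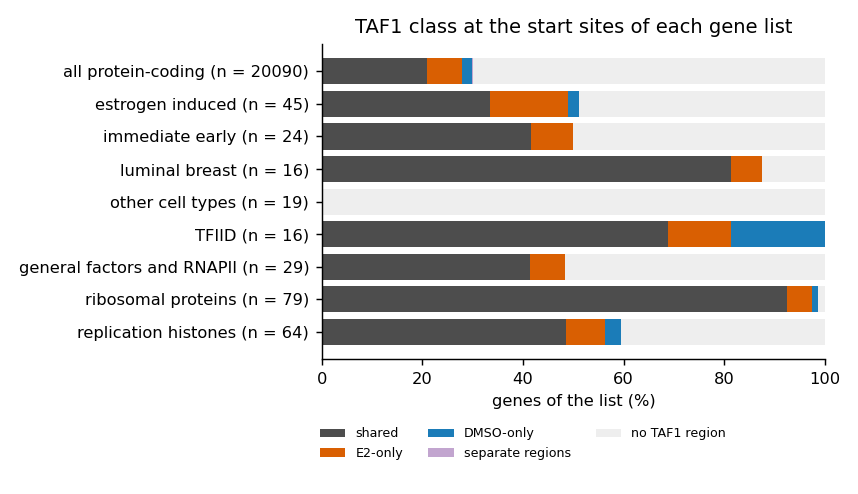
Share of the genes of each list (x axis, %) whose start sites carried a shared, E2-only or DMSO-only TAF1 region, separate regions in the 2 lists, or none (colors); rows are all 20090 protein-coding genes and 8 lists with their size. TFIID and ribosomal protein genes were occupied at 16 of 16 and 78 of 79 genes, and markers of other cell types at 0 of 19.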

How the data were processed

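The files were MACS2 peak lists in hg19, one per library; the authors aligned reads with Bowtie 1.1.2 and called each library on its own with MACS2 2.1.0.20140616. Of the deposited columns, the fold enrichment at the summit (a ratio), the −log10 p-value and q-value, and the score (10 times the deposited −log10 p, so not used further) describe each region. The lists began at a −log10 p of 10.0 (DMSO) and 10.3 (E2). Depth is not stated and was not estimated. Tags at the summit were solved from fold and p, and were whole numbers within 0.03 in over 99.9% of regions, from 17 to 339. Low tag numbers limit precision at the weakest regions.

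Samples were grouped by their labels and regions classed by overlap of 1 bp. Alternatives were a reciprocal overlap, gaps of 500 bp, a fold of 10, lists of equal length, other start-site windows, leaving out each RNAPII library and a replicate block. Promoters were 250 bp on either side of GENCODE 44 start sites lifted to GRCh37, which gives the 500 bp promoters of the study. RNAPII shares were compared by an exact permutation test over libraries with Benjamini-Hochberg adjustment over the 3 classes. Nothing says that the RNAPII replicates came from separate cultures, so their spread may be technical. Named regions were the 5 strongest of each class, with and without a protein-coding start, the 5 strongest pairs, the 5 highest and 5 lowest ratios with a fold of 10 in either list, E2-only regions with gained RNAPII, and list members that were not shared or served as examples. Members and gene lists were chosen with earlier results of these data known. Code for overlap and tag recovery was tested on simulated data. Software was Python 3.11.15, scipy 1.17.1, pandas 2.3.3 and pysam 0.24.0. Some members that these rules would name are not reported here.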

Additional observations from a re-analysis of the deposited data

Results flagged for a closer look

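The TAF1 lists of the 2 cell lines differed between treatments in opposite directions. In T-47D the E2 list was longer than the DMSO list by a ratio of 1.23, with 1656 E2-only and 527 DMSO-only regions. In Ishikawa the ratio was 0.856, with 467 E2-only and 4161 DMSO-only regions. Both directions rest on a single library under E2 and under DMSO, and whether the lines truly differ was not tested.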

How the results depend on the processing

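Alternatives changed one choice at a time, and windows of 100 bp around the summit and tags in place of fold enrichment were added after seeing the data. E2-only and DMSO-only regions numbered 738 and 89 with both lists cut to a fold enrichment of at least 10 before overlap. Most of these were regions whose partner fell below the cut. The numbers were 978 and 900 with lists of equal length, and DMSO-only regions numbered 1099 with a reciprocal overlap of 50%. Within 1000 bp of a start site lay 97.9%, 95.05% and 95.6% of shared, E2-only and DMSO-only regions. At protein-coding starts the shares were 91.5%, 82.9% and 83.4%. With the classes as redrawn by the cut at a fold enrichment of 10, shares at a start site were 98.8%, 95.9% and 97.8%. They were 91.7% for E2-only regions at equal length and 94.6% for shared regions around the summit. The difference in RNAPII share without each library ran from -0.439 to 2.34 points (shared), from -2.08 to 9.88 (E2-only) and from -2.39 to 8.68 (DMSO-only), negative in each class without Pol2 DMSO replicate 2. With a replicate block the differences stayed at 0.953, 3.90 and 3.15 points (exact sign flips, p = 1, 1 and 0.5, where 0.5 is the smallest possible). The replicate numbers are not known to pair samples, and deviations of same-numbered libraries correlated at 0.317 over 5276 TAF1 regions. The median ratio of pairs was 1.14 with a fold enrichment of at least 10 in both lists and 1.04 by tags. The other 29 of 50 alternatives moved no value beyond its interval, its direction or 1.5 times its count.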
